A study of Homo sapiens with 6 samples.

Results

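Integrins are the receptors through which a cell holds on to the extracellular matrix and to other cells, and 10 integrin subunit genes were followed here in the human cell line SKM-1 after celastrol. They are the alpha subunit genes ITGA2B, ITGA4, ITGA5, ITGA6, ITGAE and ITGAL and the beta subunit genes ITGB1, ITGB2, ITGB3 and ITGB7, picked by symbol from the 58735 genes of the deposited table. All 10 were found there, among 26 human integrin subunit genes (18 alpha and 8 beta). RNA was sequenced from cells given celastrol for 48 h (3 libraries) and from cells given DMSO (3 libraries), and nothing else separates the groups in the labels. SKM-1 is an established leukaemia line, labelled only as a cancer cell; celastrol is a plant triterpenoid, and DMSO is its solvent. No source used here gives the celastrol dose. Nothing says that the 3 libraries of a group are separate cultures. Every p-value therefore sets the difference between the groups against a spread between libraries that may be technical.

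An integrin is a heterodimer of an alpha and a beta subunit, and neither chain reaches the cell surface without a partner. The alpha chain largely sets which ligand is bound, and the beta chain's cytoplasmic tail takes up talin and kindlin, the proteins that switch the receptor to its active form. In blood cells, alpha 4 beta 1 binds VCAM-1 and fibronectin, alpha 5 beta 1 binds fibronectin, alpha IIb beta 3 is the fibrinogen receptor of platelets, the beta 2 integrins bind ICAMs, and alpha E beta 7 binds E-cadherin.

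The table lists FPKM, fragments per kilobase of gene scaled to the library's total reads. The reads behind the values numbered from 15231742 to 16231066 per celastrol library and from 13549187 to 15410904 per DMSO library. Genes with a mean of at least 1 FPKM were tested with limma-trend on log2(FPKM + 0.1), and a call means a Benjamini-Hochberg adjusted p under 0.05 over all 12685 genes tested. By this rule 29.5% of genes were called, 15.3% higher and 14.2% lower with celastrol. Of the markers of myeloid blasts, CD34 was listed at 0 in all 6 libraries, MPO averaged 0.0229 FPKM with celastrol and 0.0136 under DMSO, CD33 averaged 1.52 with celastrol and 1.68 with DMSO, SPI1 22.3 with celastrol and 17.9 with DMSO, and PTPRC 14.8 with celastrol and 12.7 with DMSO. KIT, the stem cell factor receptor, was the called gene of that list, at 1.05 FPKM with celastrol and 5.28 under DMSO (limma adjusted p = 7.26e-05), and ANPEP averaged 0.325 with celastrol and 1.01 under DMSO without overlap. Erythroid markers summed to between 405 and 433 FPKM in the celastrol libraries and between 502 and 522 in the DMSO libraries, and of the 12 erythroid markers tested 9 were lower with celastrol (median -1.32), among them KEL, 4.61-fold, and KLF1, 2.37-fold. RHAG made up most of the sum, at 290 FPKM with celastrol and 261 under DMSO, which did not pass (limma adjusted p = 0.125). Keratins were also present, with KRT18 at 89.7 FPKM with celastrol and 68.2 under DMSO, so genes of more than 1 lineage were found under the label SKM-1.

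Transcripts of the integrin family were unevenly expressed. ITGB1, ITGA5 and ITGAV averaged at least 10 FPKM over the 6 libraries. ITGB5, ITGB4, ITGAM, ITGA4, ITGAE and ITGA2B lay between 1 and 10 FPKM, and ITGAX, ITGB3, ITGB7, ITGA7, ITGAL and ITGB2 between 0.1 and 1. The remaining 11 subunits averaged under 0.1 FPKM over the 6 libraries, 9 of 18 alpha and 2 of 8 beta. Among the 10 genes followed here, ITGA6 was the member under 0.1 FPKM, and none was listed at 0 in every library. ITGB6, the partner of the alpha V chain in epithelia, was the subunit of the family listed at 0 reads in all 6 libraries. A count of 0 allows up to 3 reads, which is between 0.0381 and 0.0475 FPKM of ITGB6 in a library, and this limit covers counting error only. In the annotation 20.6% of ITGB6 exon bases also belong to AC092153.1 on the same strand, which was likewise at 0 reads in all 6 libraries. No source used here says how reads in that shared stretch were counted.

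**Figure D1:**
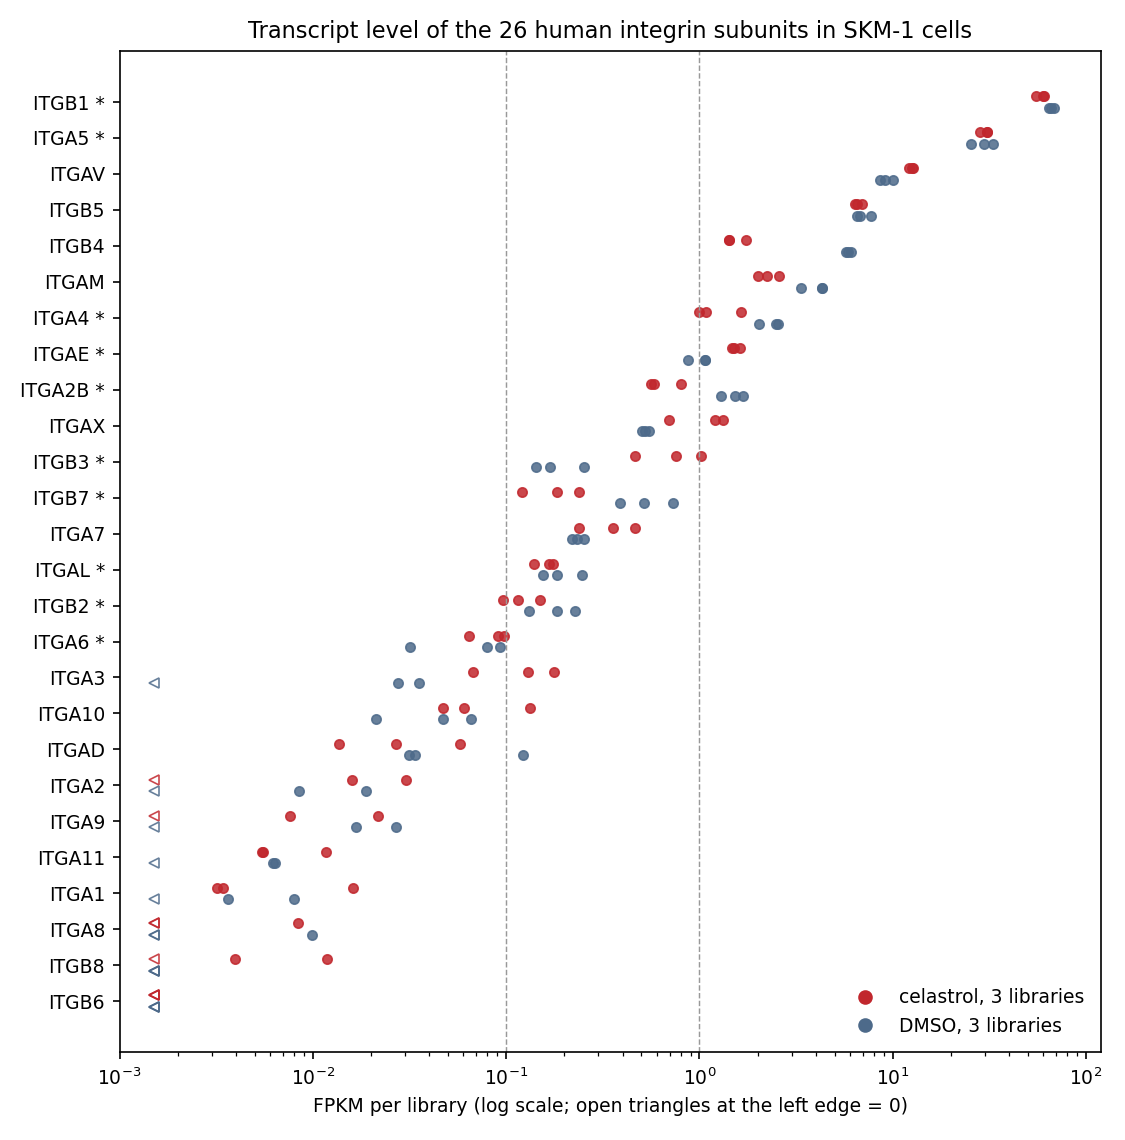
FPKM of the 26 human integrin subunits in each library (log axis; red, celastrol; blue, DMSO; open triangles at the left edge stand for 0; asterisks mark the 10 genes followed here; dashed lines at 0.1 and 1 FPKM). ITGB1 and ITGA5 lie at the top, and ITGA6 is the followed gene with a mean under 0.1 FPKM.

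Of the 10 members, 5 passed the minimum of 1 FPKM and were tested: ITGB1, ITGA5, ITGA4, ITGAE and ITGA2B. ITGA2B and ITGA4 were called lower with celastrol in limma-trend and 0 members were called higher, while 1 member, ITGAE, was higher at an unadjusted p under 0.05. Over all genes tested, 14.2% were called lower and 15.3% higher. The median log2 fold change of the tested members was -0.17 against 0.02 over all genes tested. With limma-voom on the recovered reads, where 40.3% of genes were called (28.7% higher, 11.5% lower), 2 members were lower and 1, ITGAE, was higher. Among the members, 6 had celastrol and DMSO values that did not overlap (ITGA2B, ITGA4, ITGB1 and ITGB7 lower, ITGAE and ITGB3 higher). The same held for 47.3% of all genes tested at 1 FPKM and for 36.3% of those with a mean of at least 0.1 FPKM. The RNA comes from whole cultures, so fewer cells with a transcript and less of it per cell cannot be told apart.

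The tails carry the short motifs by which integrins are switched, and their codons are shown for the tested alpha members and for the beta chains that pair with them. In capitals are the codons of the GFFKR motif, which keeps an alpha chain clasped to its beta chain at the membrane, and those of the NPxY or NPxF motifs of the beta tails, which talin and kindlin bind. The coding sequences are those of GENCODE 29 transcripts. ITGA5 is on chromosome 12, ITGA4 on 2, ITGAE and ITGA2B on 17, ITGB1 on 10, ITGB3 on 17 and ITGB7 on 12.
ITGA5: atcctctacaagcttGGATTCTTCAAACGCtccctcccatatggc
ITGA4: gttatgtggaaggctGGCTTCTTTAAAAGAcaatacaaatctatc
ITGAE: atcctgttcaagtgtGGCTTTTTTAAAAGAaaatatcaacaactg
ITGA2B: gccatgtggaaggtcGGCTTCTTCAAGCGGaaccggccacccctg
ITGB1: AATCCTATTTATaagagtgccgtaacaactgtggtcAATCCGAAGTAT
ITGB3: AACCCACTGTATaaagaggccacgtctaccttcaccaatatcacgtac
ITGB7: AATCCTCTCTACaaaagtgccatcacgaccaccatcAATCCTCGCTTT

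All 6 alpha members encode GFFKR, and the 45-base windows were 51.1% to 64.4% identical between any pair of them. In the 48-base beta windows, ITGB1, ITGB2 and ITGB7 each held 2 of the motifs and ITGB3 held 1. The ITGB3 window ends in codons for NITY, of the form NxxY. It lacks the P that the search required, so it was neither counted nor put in capitals. Identity between the 4 beta windows ran from 52.1% for ITGB1 and ITGB3 to 68.8% for ITGB2 and ITGB7. After its GFFKR motif ITGA2B has 13 codons left, and ITGA4 and ITGAE have 25 each.

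ITGB1 (chr10:32900319-33005792, minus strand), the common beta chain that pairs with 12 alpha subunits, had 60.8, 59.8 and 55.1 FPKM in celastrol replicates 1 to 3, against 64.1, 65.5 and 68.2 FPKM in DMSO replicates 1 to 3. Every celastrol library was below every DMSO library. The means were 58.6 ± 3.01 FPKM with celastrol and 65.9 ± 2.09 under DMSO (SD, n = 3 each), a log2 fold change of -0.17 (SE 0.07) that did not pass in limma (adjusted p = 0.0974). Its direction turned with scaling: rescaled to TPM, where the median of all genes tested lay at 0.26, ITGB1 lay at 0.07.

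ITGA5 (chr12:54395261-54419460, minus strand), the alpha chain of the classical fibronectin receptor, was the most abundant alpha transcript. It had 30.8, 28.1 and 30.7 FPKM with celastrol and 33.1, 25.3 and 29.6 FPKM with DMSO, and the groups overlapped over their whole range. The log2 fold change was 0.03 (SE 0.10; limma adjusted p = 0.838). ITGA5 made up 59.7 ± 1.50% of the summed alpha FPKM with celastrol and 60.2 ± 3.47% under DMSO (SD, n = 3 each). Under TPM it passed as higher, at 0.27 (adjusted p = 0.0392), next to the median of 0.26 over all genes tested.

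ITGA4 (chr2:181457202-181536187, plus strand) encodes the alpha chain that binds VCAM-1 with beta 1 and MAdCAM-1 with beta 7. It had 1.64, 0.991 and 1.08 FPKM with celastrol, from 204, 130 and 144 reads, against 2.04, 2.55 and 2.49 FPKM with DMSO, from 232, 271 and 292 reads. Celastrol replicate 1 lay nearest to the DMSO libraries, and the groups did not overlap. ITGA4 averaged 1.24 ± 0.349 FPKM with celastrol and 2.36 ± 0.277 under DMSO (SD, n = 3 each). It fell 1.91-fold, with a log2 fold change of -0.90 (SE 0.22; limma adjusted p = 0.0184). The erythroid markers were lower alongside ITGA4, in 9 of 12 tested, against 14.2% called lower over all genes tested. The part of these markers in the ITGA4 result was not tested. The ITGA4 call was lost without celastrol replicate 2 (adjusted p = 0.0580) or 3 (0.0558), without DMSO replicate 2 (0.0503) or 3 (0.0691), and with no filter on low values (0.0538), while the log2 fold change over the left-out libraries stayed between -1.11 and -0.77.

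ITGA2B (chr17:44372180-44389505, minus strand), the alpha IIb chain of megakaryocytes and platelets, was the other called subunit among the 10 members. Its values were 0.799, 0.564 and 0.578 FPKM with celastrol, from 70, 52 and 54 reads, against 1.69, 1.30 and 1.53 FPKM with DMSO, from 135, 97 and 126 reads. Each celastrol library was below each DMSO library. ITGA2B averaged 0.647 ± 0.132 FPKM with celastrol and 1.50 ± 0.197 under DMSO (SD, n = 3 each), 2.32-fold lower, with a log2 fold change of -1.11 (SE 0.27; limma adjusted p = 0.0200). Its mean over all libraries, 1.08 FPKM, passed the minimum through the DMSO level. The call was lost without celastrol replicate 2 (adjusted p = 0.0565), DMSO replicate 1 (0.0698) or DMSO replicate 3 (0.0743). Megakaryocyte markers summed to between 16.2 and 20.1 FPKM with celastrol and between 15.9 and 18.5 with DMSO. PF4, GP9, TREML1 and VWF were at 0 in all 6 libraries, and of the 4 markers tested out of 12, TUBB1 was lower at -0.73 and F2RL3 higher at 0.41 on the log2 scale. Over all genes tested, 15.3% were called higher and 14.2% lower. The F2RL3 call was lost without celastrol replicate 1 (adjusted p = 0.0521), celastrol replicate 2 (0.0616) or DMSO replicate 3 (0.0647). The part of these markers, and of the erythroid ones, in the ITGA2B result was not tested.

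ITGAE (chr17:3714628-3801243, minus strand), the alpha chain of the E-cadherin receptor and known as CD103 on tissue lymphocytes, was higher on average without passing. It had 1.50, 1.47 and 1.63 FPKM with celastrol, from 158, 162 and 182 reads, against 1.06, 0.870 and 1.07 FPKM with DMSO, from 102, 78 and 106 reads. Every celastrol library was above every DMSO library. The means, 1.53 ± 0.0835 FPKM with celastrol and 1.00 ± 0.114 under DMSO (SD, n = 3 each), differed 1.53-fold, with a log2 fold change of 0.57 (SE 0.20; limma adjusted p = 0.0709). ITGAE passed under TPM (adjusted p = 0.0142), where 41.5% of genes were called higher and 6.41% lower, and scaled to listed reads (0.0370), where 23.8% were called higher and 10.2% lower. It also passed with limma-voom (0.00128) and among protein-coding genes alone (0.00933), of which 38.0% were called (21.5% higher, 16.5% lower). HASPIN lies in the ITGAE locus on the opposite strand and shares 6.41% of its exon bases; it had 231, 248 and 232 reads with celastrol and 267, 249 and 303 with DMSO. Strandedness is not stated, so reads in that shared stretch may belong to either gene. Lymphoid markers summed to between 15.6 and 16.1 FPKM with celastrol and between 8.67 and 10.7 with DMSO, and CD8A and MS4A1 were at 0 in all 6 libraries. Of the 3 tested, NKG7 and CD3D were higher, against 15.3% called higher over all genes tested in the reported fit. CD3D lost its call without celastrol replicate 2 or DMSO replicate 3. The part of these markers in the ITGAE values was not tested.

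**Figure D2:**
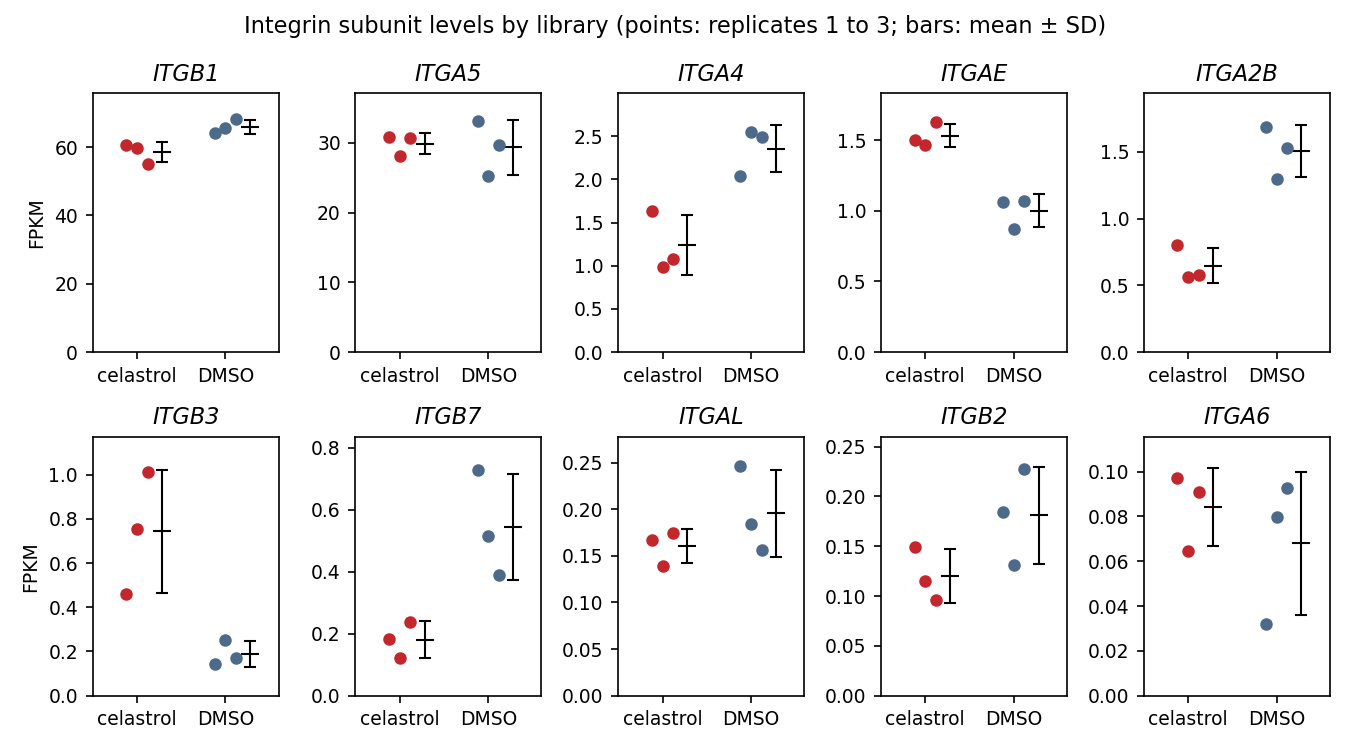
FPKM of the 10 integrin subunits by library (linear axes from 0, a scale of its own per gene; points are replicates 1 to 3, red for celastrol and blue for DMSO; bars are the mean ± SD of the 3 libraries). ITGA4, ITGA2B, ITGB1 and ITGB7 lie lower and ITGAE and ITGB3 higher in every celastrol library, and the other 4 genes overlap.

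The 5 members under 1 FPKM rested on few reads. For 4 of them a fit with a minimum mean of 0.1 FPKM, which tested 21489 genes and called 7.62% higher and 7.83% lower, gives the values below. ITGB3 (chr17:47253846-47311816, plus strand), the beta chain that joins alpha IIb or alpha V, had 0.461, 0.754 and 1.01 FPKM with celastrol, from 32, 55 and 75 reads, against 0.142, 0.254 and 0.168 FPKM with DMSO, from 9, 15 and 11 reads. The groups did not overlap, and celastrol replicate 3 was above the others of its group. ITGB3 averaged 0.743 ± 0.277 FPKM with celastrol and 0.188 ± 0.0582 under DMSO (SD, n = 3 each), 3.95-fold higher (log2 fold change 1.51, SE 0.35, limma adjusted p = 0.0300). The call was lost with no filter (adjusted p = 0.0656) and without celastrol replicate 2 (0.112), celastrol replicate 3 (0.0989), DMSO replicate 1 (0.0882), 2 (0.0563) or 3 (0.110). In the annotation 51.6% of ITGB3 exon bases also belong to AC068234.1 on the same strand, which was listed at 0 reads in all 6 libraries. No source used here says how reads in a shared stretch were counted. The ITGB3 FPKM, here and in the order, ratios and pairs below, may therefore be understated. The part of AC068234.1 in the ITGB3 level was not tested.

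ITGB7 (chr12:53191318-53207307, minus strand), the partner of alpha 4 and alpha E on gut-homing lymphocytes, had 0.184, 0.121 and 0.239 FPKM with celastrol, from 13, 9 and 18 reads. With DMSO it had 0.729, 0.514 and 0.390 FPKM, from 47, 31 and 26 reads. The groups did not overlap, and the means were 0.181 ± 0.0590 FPKM with celastrol and 0.544 ± 0.171 under DMSO (SD, n = 3 each). The log2 fold change of -1.18 (SE 0.34) did not pass in limma-trend (adjusted p = 0.0599) and passed with limma-voom, at -1.45 (adjusted p = 0.00470). ZNF740 on the opposite strand shares 42.1% of ITGB7 exon bases and had 764 to 1013 reads per library, many more than ITGB7. Counting settings are not given, so ITGB7 may hold reads of ZNF740 or lack reads of its own from the shared stretch.

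The leukocyte integrin LFA-1 is made of ITGAL and ITGB2. ITGAL (chr16:30472658-30523185, plus strand) had 0.166, 0.140 and 0.175 FPKM with celastrol and 0.247, 0.184 and 0.156 FPKM with DMSO, from 15 to 23 reads in each library. ITGB2 (chr21:44885953-44931989, minus strand), the shared beta chain of the leukocyte integrins, had 0.149, 0.115 and 0.0962 FPKM with celastrol and 0.184, 0.131 and 0.228 FPKM with DMSO, from 11 to 23 reads. In both genes the groups overlapped, and neither passed (log2 fold changes -0.17 and -0.34, limma adjusted p = 0.785 and 0.588). ITGA6 (chr2:172427354-172506282, plus strand), the laminin-binding alpha chain, had 10, 7 and 10 reads with celastrol and 3, 7 and 9 with DMSO, or 0.0645 to 0.0970 FPKM and 0.0319 to 0.0927 FPKM. It entered a fit with no filter alone, at a log2 fold change of 0.15 (limma adjusted p = 0.775).

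In both groups ITGB1 stood first and ITGA5 after it, apart from each other and from all members below. With celastrol the order then ran ITGAE, ITGA4, ITGB3, ITGA2B, ITGB7, ITGAL, ITGB2 and ITGA6, and every neighbour in it overlapped the next except ITGA2B and ITGB7. With DMSO it ran ITGA4, ITGA2B, ITGAE, ITGB7, ITGAL, ITGB3, ITGB2 and ITGA6, and the overlapping neighbours were ITGAL with ITGB3 and ITGB3 with ITGB2. These are levels in FPKM, which takes gene length into account.

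The 16 other subunits, the partners and rivals of these chains, included 4 that were tested. Of these 4, 1 was called higher and 2 lower, against 15.3% higher and 14.2% lower over all genes tested. ITGB4, the hemidesmosome beta chain that pairs with alpha 6, had 1.73, 1.43 and 1.42 FPKM with celastrol against 5.86, 5.71 and 6.06 FPKM with DMSO. It was 3.85-fold lower (log2 fold change -1.88, SE 0.11, limma adjusted p = 8.91e-05) and was called in all 27 alternatives. Epithelial and stromal markers summed to between 569 and 578 FPKM with celastrol and between 519 and 531 with DMSO, and KRT5 was at 0 in all 6 libraries. Of 6 tested out of 10, KRT8 and KRT18, whose genes overlap on opposite strands, were higher and EPCAM and KRT19 lower. The share called over all genes tested was 29.5%. KRT19 lost its call without each library except DMSO replicate 2, and the part of these markers in the ITGB4 result was not tested. ITGAM, the alpha M chain of monocytes and granulocytes also known as CD11b, had 2.24, 2.59 and 2.00 FPKM with celastrol against 4.30, 3.34 and 4.33 with DMSO. It was lower at -0.78 (SE 0.15; adjusted p = 0.00721), and monocyte and macrophage markers summed to between 17.3 and 19.4 FPKM with celastrol and between 36.8 and 39.5 with DMSO. Nearly all of that sum was LYZ, at 17.6 FPKM with celastrol and 38.0 under DMSO, the marker that was tested of the 10, and it was lower. The low ones CD14, at 0.364 FPKM with celastrol and 0.113 under DMSO, and CSF1R, at 0.0911 with celastrol and 0.0312 under DMSO, lay higher with celastrol without overlap and were not tested at 1 FPKM. MARCO and CD163 were at 0 in all libraries, and the part of these markers in the ITGAM result was not tested. ITGAV, which binds RGD ligands such as vitronectin, had 12.1, 12.7 and 12.6 FPKM with celastrol against 8.62, 10.0 and 9.15 with DMSO. It was higher at 0.43 (SE 0.08; adjusted p = 0.00666). ITGB5, its vitronectin-binding partner, averaged 6.61 ± 0.301 FPKM with celastrol and 7.03 ± 0.641 under DMSO (SD, n = 3 each; adjusted p = 0.503).

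Below the minimum of 1 FPKM, ITGAX, the CD11c chain of dendritic cells and macrophages, had 0.699, 1.21 and 1.33 FPKM with celastrol and 0.520, 0.546 and 0.504 FPKM with DMSO, groups that did not overlap. At a minimum of 0.1 FPKM it did not pass in limma-trend (adjusted p = 0.0704), and it passed with limma-voom (0.00159), under TPM (0.0234), scaled to listed reads (0.0498) and without celastrol replicate 1 (0.0345). ITGA7, a laminin receptor of muscle, averaged 0.355 FPKM with celastrol and 0.235 under DMSO, and its groups overlapped. ITGA3 had 20, 11 and 29 reads with celastrol against 5, 0 and 4 with DMSO. ITGA10, ITGAD, ITGA2, ITGA9, ITGA11, ITGA1, ITGA8 and ITGB8 had at most 14 reads in any library.

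Summed over the family, alpha transcripts came to 50.0 ± 1.30 FPKM with celastrol and 48.7 ± 3.79 under DMSO, and beta transcripts to 67.8 ± 2.54 FPKM with celastrol and 79.7 ± 1.80 under DMSO (SD, n = 3 each). ITGB1 held 86.4% of the beta sum with celastrol and 82.7% under DMSO, and ITGB4 held 2.25% with celastrol and 7.37% under DMSO. ITGA4 held 2.47% of the alpha sum with celastrol and 4.89% under DMSO, ITGA2B held 1.29% with celastrol and 3.08% under DMSO, and ITGAV 25.0% with celastrol and 19.2% under DMSO. The ratio of ITGA5 to ITGA4 was 18.8, 28.4 and 28.3 in the celastrol libraries against 16.3, 9.93 and 11.9 in the DMSO libraries. For ITGA2B over ITGB3, the chains of the platelet fibrinogen receptor, it was 1.73, 0.748 and 0.570 with celastrol against 11.9, 5.12 and 9.07 with DMSO. For these subunit pairs the celastrol and DMSO ratios did not overlap.

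Of 24 known alpha-beta pairs, both transcripts averaged at least 1 FPKM in 4: alpha 4 beta 1, alpha 5 beta 1, alpha V beta 1 and alpha V beta 5. In 12 pairs a subunit averaged under 0.1 FPKM over the 6 libraries. Alpha 3 beta 1 is among them, although ITGA3 averaged 0.124 FPKM with celastrol and 0.0210 under DMSO. ITGB4 pairs with alpha 6 alone, and ITGA6 was under 0.1 FPKM in both groups, at 0.0842 FPKM with celastrol and 0.0680 under DMSO. ITGAM and ITGAX pair with ITGB2, which averaged 0.120 FPKM with celastrol and 0.181 under DMSO. ITGAE pairs with ITGB7, at 0.181 FPKM with celastrol and 0.544 under DMSO. Transcript levels do not show how much protein of each pair was made.

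**Figure D3:**
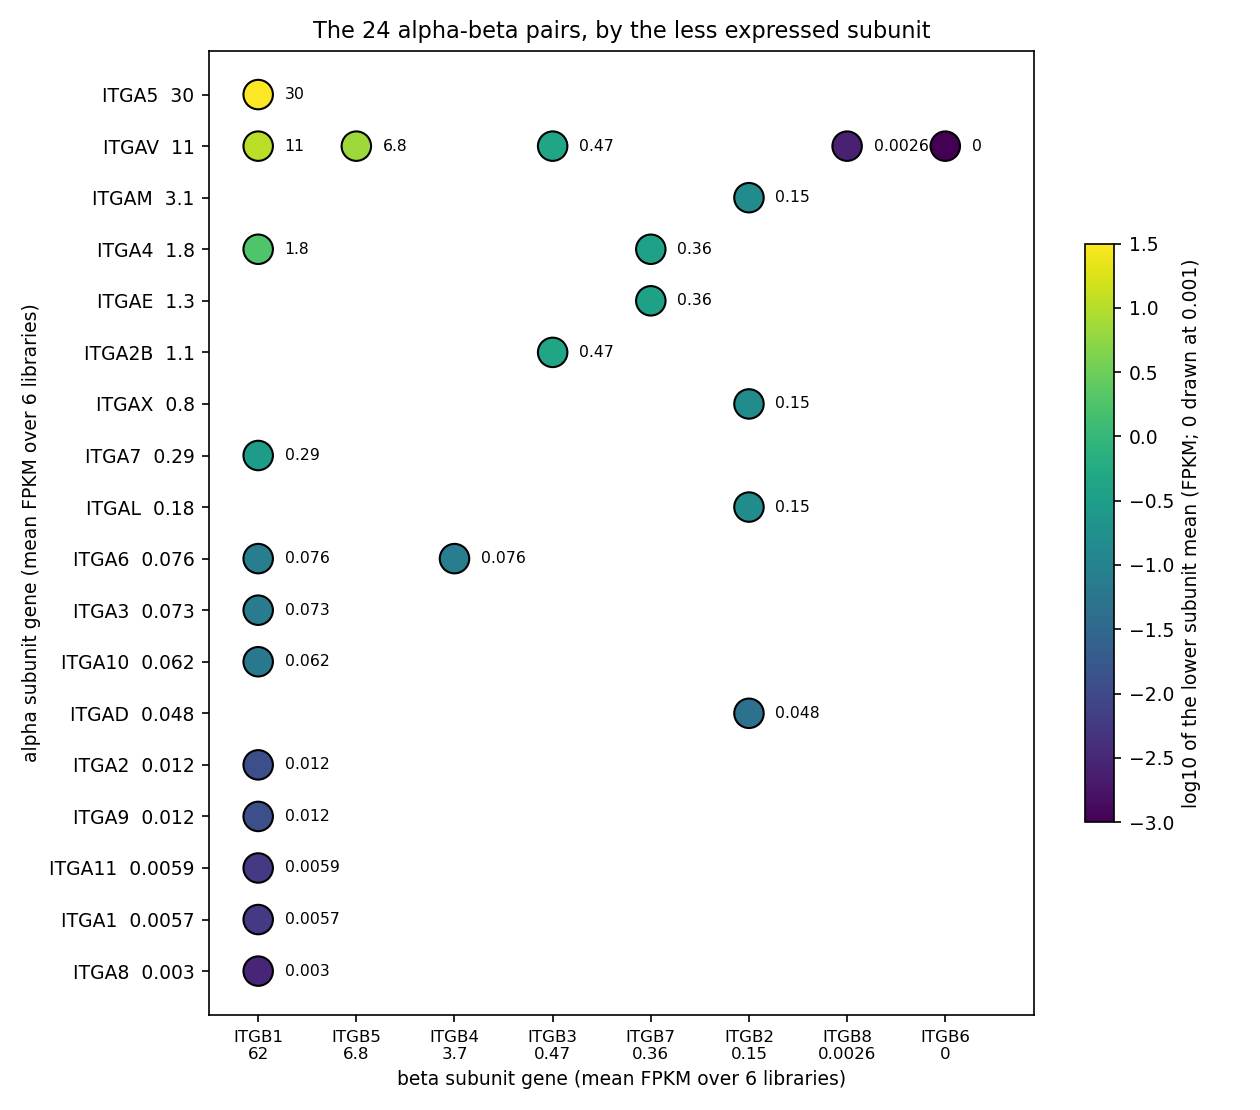
The 24 known alpha-beta pairs, each drawn where its alpha gene (rows, ordered by mean FPKM over 6 libraries) meets its beta gene (columns); colour and number give the mean FPKM of the less expressed chain, on a log10 colour scale. The pairs of ITGB1 with ITGA5, ITGAV and ITGA4 and the pair of ITGAV with ITGB5 are those with both chains at 1 FPKM or more.

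Sequence upstream of the start was read for the members that fell and for ITGAE, to show where regulatory letters were looked for; 7 of the 10 members matched the RefSeq promoter table (GRCh38.p14). The windows are the 250 bases before the RefSeq start, printed where they lie outside the gene in the deposited table's annotation as well. They read 5′ to 3′ on the gene's strand, at chr17:44389650-44389899 (minus) for ITGA2B, chr2:181457136-181457201 (plus) for ITGA4 and chr17:3801244-3801438 (minus) for ITGAE, and no GENCODE 29 gene overlaps them. Capitals mark the match described after them.
ITGA2B: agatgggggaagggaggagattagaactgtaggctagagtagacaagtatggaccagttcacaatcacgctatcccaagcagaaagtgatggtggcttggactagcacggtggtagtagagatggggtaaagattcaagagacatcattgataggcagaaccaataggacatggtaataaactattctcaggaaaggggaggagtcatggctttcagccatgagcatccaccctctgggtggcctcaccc
ITGA4: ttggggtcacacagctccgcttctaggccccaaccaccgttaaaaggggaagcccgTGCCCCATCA
ITGAE: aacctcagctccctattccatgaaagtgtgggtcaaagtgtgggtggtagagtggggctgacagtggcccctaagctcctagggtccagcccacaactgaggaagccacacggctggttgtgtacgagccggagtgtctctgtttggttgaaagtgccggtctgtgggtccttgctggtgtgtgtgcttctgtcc

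The whole 250-base windows had a GC content of 48.8% for ITGA2B, 72.8% for ITGA4 and 60% for ITGAE, against a median of 58% over 35116 promoters. Short motifs were searched on both strands. AGATAA, 1 form of the letters of GATA factors, occurs in 9.17% of promoters. Other GATA forms, such as the TGATAG in the ITGA2B window, were not searched. CCGGAAG, of ETS factors, occurs in 8.52%, and TGTGGT, of RUNX factors, in 3855 of the 35116. GGGCGG, the GC box of SP and KLF factors, occurs in 42.6%. TGANTCA, of AP-1, occurs in 6.57% and TATAAA, the TATA box, in 10.7%. The antioxidant response element, searched by its core consensus, occurs in 10.2%. Matches to different motifs did not overlap each other in these windows. ITGA4 held 1 match, to the antioxidant response element on the reverse strand, starting 194 bases before the RefSeq start. ITGA2B and ITGAE held 0 of these strings, ITGB1 held 3 GC boxes, ITGA5 held 1 GC box and ITGA6 held 1 TATA string. A match is a description of letters and not a binding site, and the RefSeq start of ITGA2B lies 144 bases from the gene start in the deposited table. The ITGB1 window lies inside that table's gene, 47562 bases from its start.

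The genes whose pattern over the 6 libraries was nearest to each tested member were picked from 9969 protein-coding genes by the root mean square difference of centred log2 values. For ITGA2B these were HJV, at 0.0625, and GRAP2, at 0.0634. For ITGA4 they were NR1D2 (0.116) and PTPRB (0.129), for ITGAE RNF121 (0.0352) and ORMDL3 (0.0366), for ITGB1 ESYT2 (0.0204) and XRCC1 (0.0218), and for ITGA5 FLYWCH2 (0.0174) and FURIN (0.0232). HJV averaged 2.03 FPKM with celastrol and 4.25 under DMSO, and NR1D2 1.26 with celastrol and 2.74 under DMSO. Each match is the closest of 9969 genes over 6 libraries, so a small difference can come with a similar fold change alone. Shared regulation was not tested.

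Genes that switch integrins on were measured alongside. Of 16 activators 10 were tested, 3 were higher and 1 lower, with a median log2 fold change of 0.15. Over all genes tested 15.3% were called higher and 14.2% lower. TLN1 and FERMT3, talin and the kindlin of blood cells, bind the beta tails shown above, and both were abundant. TLN1 averaged 68.1 ± 4.64 FPKM with celastrol and 78.4 ± 6.75 under DMSO, and FERMT3 106 ± 2.70 with celastrol and 116 ± 13.9 under DMSO (SD, n = 3 each; limma adjusted p = 0.125 and 0.385). The adaptor SKAP2 was 1.69-fold higher, at 12.3 ± 0.297 FPKM with celastrol against 7.29 ± 1.38 with DMSO (adjusted p = 0.00452). RASSF5, the Rap1 effector RAPL, was higher at 0.43, and the kinase STK4 at 0.25, a call that was lost when any of the 6 libraries was left out. RASGRP2, the exchange factor that loads Rap1 in platelets, was 2.38-fold lower, at 1.10, 0.950 and 0.645 FPKM with celastrol against 1.96, 2.12 and 2.34 with DMSO (adjusted p = 0.00851), and it passed the minimum of 1 FPKM through the DMSO level. The talin recruiter APBB1IP was at 0 in all 6 libraries, and SKAP1, FERMT1 and FERMT2 averaged under 0.1 FPKM in both groups.

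All 8 genes listed as inhibitors or negative partners of integrin tails were tested, with 3 higher and 2 lower (median -0.10). The share called over all genes tested was 29.5%. FLNA, the filamin that competes with talin for beta tails, had 167, 180 and 189 FPKM with celastrol against 121, 96.9 and 106 with DMSO. It was 1.65-fold higher, with a log2 fold change of 0.73 (SE 0.10; limma adjusted p = 0.00183). RAP1GAP, which switches Rap1 off, was lower at -0.48, a call lost without DMSO replicate 3 (adjusted p = 0.0527) and under TPM (0.0709). ITGB1BP1, which binds the beta 1 tail, was higher at 0.29, and CIB1, which binds the alpha IIb tail, at 0.27. Left-out libraries ended both calls: ITGB1BP1 lost its call without each of the 6, and CIB1 without each except DMSO replicate 1.

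The adhesion complex joins beta tails to actin and to kinases. Of 32 such genes 20 were tested, 4 were higher and 2 lower (median 0.04), against 29.5% called over all genes tested. The kinase SRC was 1.79-fold higher, at 10.4 ± 0.780 FPKM with celastrol and 5.82 ± 0.764 under DMSO. The scaffold PXN, paxillin, was 1.58-fold higher, at 33.8 ± 1.50 with celastrol and 21.3 ± 1.30 under DMSO, and BCAR1 1.51-fold, at 7.93 ± 0.693 with celastrol and 5.24 ± 0.822 under DMSO (SD, n = 3 each; limma adjusted p = 0.00196, 0.000968 and 0.0119). LPXN, leupaxin, was higher at 0.57 and lost its call without replicate 1 or 3 of either group. PTK2B, the PYK2 kinase of blood cells, was 1.64-fold lower (adjusted p = 0.00207). VCL, vinculin, was lower at -0.25 and kept its call without DMSO replicate 2 and lost it without each of the other libraries. Over 17 alternative settings VCL was called in 7, and its log2 fold change ran from -0.27 to -0.0041. PTK2, focal adhesion kinase, averaged 6.86 ± 0.0395 FPKM with celastrol and 7.19 ± 0.309 under DMSO (adjusted p = 0.511). PARVA and DOCK1 were at 0 in all 6 libraries, and ILK averaged 0.936 FPKM with celastrol and 0.684 under DMSO.

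Ligands of these receptors were mostly low. Of 34 genes 12 were tested, 3 were higher and 3 lower (median -0.01), against 29.5% called over all genes tested. FN1, the fibronectin that alpha 4 beta 1 and alpha 5 beta 1 bind, had 23.3, 24.7 and 24.1 FPKM with celastrol and 24.0, 18.2 and 21.7 with DMSO (limma adjusted p = 0.222). VCAM1 averaged 0.00660 FPKM with celastrol and 0.0158 under DMSO, and CDH1, the E-cadherin bound by alpha E beta 7, averaged 0.00342 with celastrol and 0.0185 under DMSO. The fibrinogen gene FGA was at 0 in all 6 libraries. ICAM1 averaged 22.0 FPKM with celastrol and 22.4 under DMSO. COL6A2, a collagen VI chain, was 7.15-fold higher, at 1.25, 1.74 and 2.62 FPKM with celastrol against 0.271, 0.276 and 0.237 with DMSO (adjusted p = 0.00480), and it passed the minimum of 1 FPKM through the celastrol level. EMILIN1 was 1.46-fold higher, and TGFB1, whose latent form alpha V integrins activate, 1.34-fold. The laminin chains LAMB1 and LAMA5 were 2.06-fold and 1.53-fold lower. ICAM5 was lower at -0.30 and lost its call when celastrol replicate 2 or 3, or DMSO replicate 1 or 3, was left out. Over 17 alternative settings ICAM5 was called in 8, and its log2 fold change ran from -0.37 to -0.059. VTN, vitronectin, had 0.339, 0.347 and 0.490 FPKM with celastrol against 1.32, 1.07 and 1.22 with DMSO, and LAMC1 0.452, 0.430 and 0.849 FPKM with celastrol against 0.0661, 0.0618 and 0.0480 with DMSO. Both were under the minimum, and their groups did not overlap, as in 36.3% of genes with a mean of at least 0.1 FPKM. Each passed in both limma fits that took it in, with a minimum of 0.1 FPKM and with no filter. The largest adjusted p was 0.0226 for VTN (log2 fold change -1.41) and 0.0247 for LAMC1 (2.04).

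Of 14 membrane partners, chiefly tetraspanins that gather integrins in the membrane, 12 were tested, 4 were higher and 2 lower (median 0.20). The share called over all genes tested was 29.5%. CD82 was 2.00-fold higher, at 6.84 ± 0.255 FPKM with celastrol and 3.43 ± 0.465 under DMSO, and CD53 1.60-fold higher, at 153 ± 8.08 with celastrol and 95.7 ± 2.12 under DMSO (SD, n = 3 each; limma adjusted p = 0.000996 and 0.000586). SLC3A2, the CD98 chain that binds beta 1 tails, had 96.2, 122 and 196 FPKM with celastrol against 87.2, 70.5 and 81.4 with DMSO, and CD63 had 147, 179 and 218 FPKM with celastrol against 136, 112 and 133 with DMSO. Celastrol replicate 3 was the highest library for both, and each lost its call without celastrol replicate 2, celastrol replicate 3 or any DMSO library. CD37 was 1.86-fold lower, at 6.35 ± 0.604 FPKM with celastrol and 11.8 ± 1.10 under DMSO (SD, n = 3 each). TSPAN32, which passed the minimum through its DMSO level, was 1.96-fold lower and missed the threshold when DMSO replicate 3 was left out (adjusted p = 0.0506).

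Adhesion receptors of other families were mostly low, with 12 of 20 genes under 0.1 FPKM. Of the 20 genes 5 were tested, 0 were higher and 1 was lower (median -0.15), against 29.5% called over all genes tested. GP6, the platelet collagen receptor, at 3.69 FPKM with celastrol and 2.57 under DMSO, was the 1 gene higher at an unadjusted p under 0.05, and with limma-voom 1 gene was called higher. SELPLG, the selectin ligand PSGL-1, was 1.44-fold lower, at 8.04 ± 0.583 FPKM with celastrol and 11.5 ± 1.44 under DMSO (SD, n = 3 each; limma adjusted p = 0.0115), and did not keep its call when DMSO replicate 3 was left out (0.0509) or under TPM (0.0622). SELE, CD34, GP9 and GP1BB were at 0 in all 6 libraries, and CD44, the hyaluronan receptor, averaged 0.160 FPKM with celastrol and 0.102 under DMSO.

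**Figure D4:**
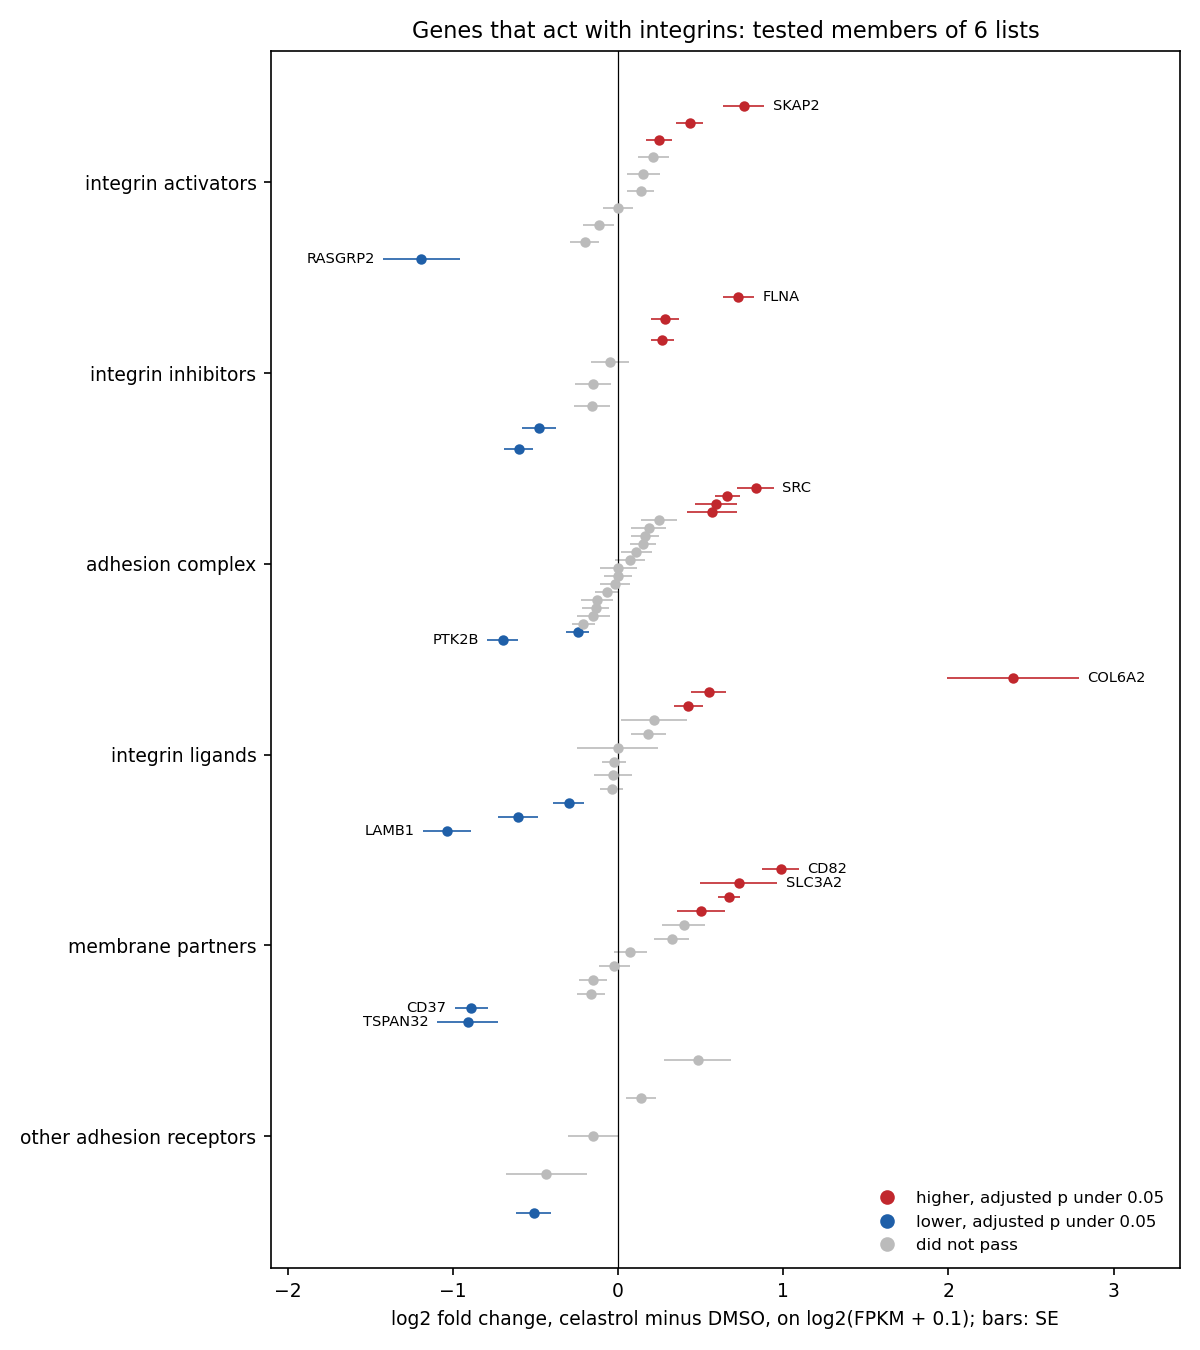
Log2 fold change, celastrol minus DMSO, with SE, of the tested genes in 6 lists of integrin-linked genes (red, called higher; blue, called lower; grey, did not pass); names mark called genes beyond 0.68. Calls lie on both sides of 0 in each list except the other adhesion receptors, whose 1 call is lower.

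**Figure D5:**
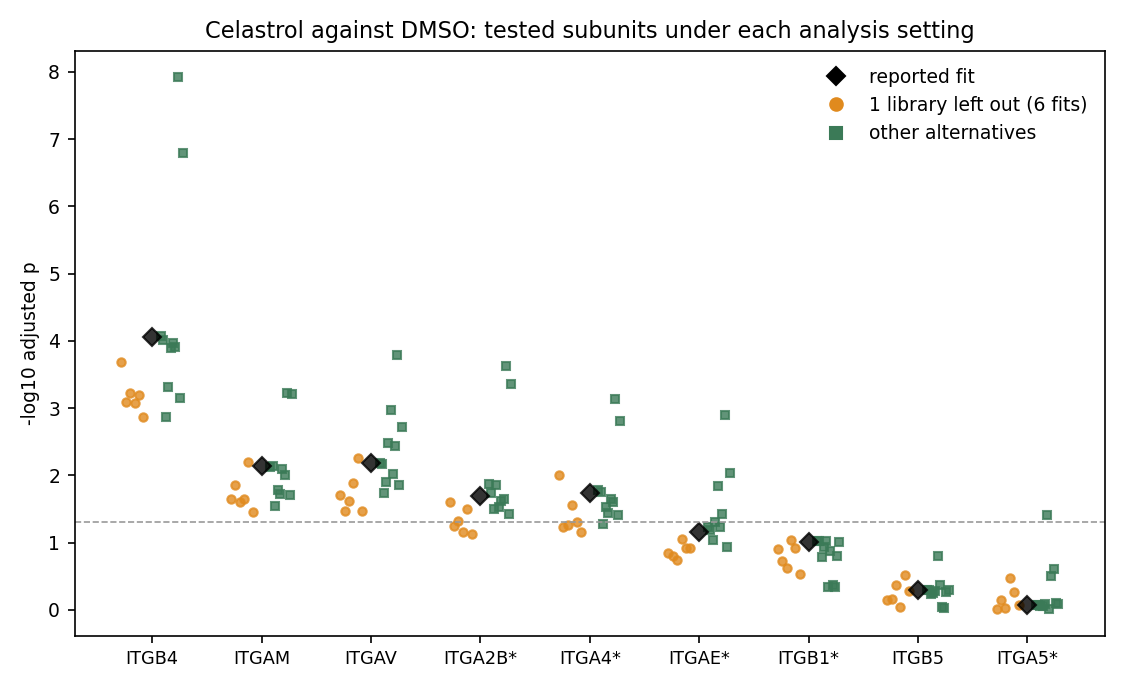
Minus log10 of the limma adjusted p of the 9 tested subunits in the reported fit (black diamonds), with 1 library left out (orange) and under the other alternatives (green); the dashed line is 0.05 and asterisks mark the genes followed here. ITGB4 stays above the line in every fit shown, ITGA2B and ITGA4 cross it when some libraries are left out, and ITGB1 and ITGB5 stay below it.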

How the data were processed

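Total RNA of 6 SKM-1 libraries was sequenced, with group and replicate number taken from the titles. The authors deposited FPKM per gene and library. Per the submitters' processing notes, HISAT2 2.0.5, featureCounts 1.5.0-p3 and GRCh38 (hg38) were used; the sources used here give no settings, strandedness or definition of the library total. All 58735 genes matched GENCODE 29 by identifier and position. FPKM times gene length gave whole reads for 100% of values (tolerance 0.001). The authors' total was 1.04 to 1.05 times these reads with celastrol and 0.963 to 0.994 times with DMSO, so the deposited values place celastrol lower than scaling to listed reads does. Tests used limma 3.58.1 (limma-trend, treatment as the single term, two-sided) in R 4.3.3 on log2(FPKM + 0.1), which understates changes of low genes, with a minimum mean of 1 FPKM. Folds are of FPKM means. Recovered reads were also tested with limma-voom, which called 3646 genes higher and 1461 lower against 1947 and 1797. The steps were tested on simulated data. Tables and figures used Python 3.11.15, pandas 2.3.3, numpy 2.4.6, Biopython 1.88 and matplotlib 3.10.9. The integrin genes and the 14 gene lists were chosen with earlier results of these data known. Named are all 26 subunits, up to 6 called and up to 3 abundant genes of a list, and 2 nearest genes per tested member; other named genes of the lists (those at or near 0, markers such as KIT and RHAG, PTK2, ILK, VTN, LAMC1, CDH1 and CD44 among them) were chosen after their values were seen. Some genes of the lists are not reported here.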

Additional observations from a re-analysis of the deposited data

How the results depend on the processing

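Counts of called members moved with the settings. Called higher were 0 as reported, 1 with a minimum mean of 0.1 FPKM (ITGB3), with reads scaled to their listed total, with limma-voom and with protein-coding genes alone (ITGAE each), and 2 under TPM (ITGA5 and ITGAE). Called lower were 2 as reported, 1 with no filter, 0 with a minimum of 5 FPKM, and 0 to 2 with a library left out. Over all genes, 1947 were higher as reported, 5266 under TPM, 3024 scaled to listed reads, 3646 with limma-voom and 1125 to 1937 with a library left out. The lower calls were 1797 as reported, 813 under TPM and 987 to 1767 with a library left out. The median of all genes was 0.02 as reported, 0.26 under TPM and 0.12 with listed reads or limma-voom. Directions turned for ITGA5 (-0.0041 under quantile normalization, -0.0696 without DMSO replicate 2), ITGB1 (0.0706 under TPM) and ITGB5 (0.155 under TPM, 0.0121 with listed reads and 0.0121 with limma-voom). They also turned for TLN1 (0.0410), FERMT3 (0.125) and CD33 (0.0921) under TPM, for PTK2 (0.174 under TPM, 0.0307 with listed reads, 0.0319 with limma-voom) and for ICAM1 (0.216 under TPM, 0.0731 with listed reads, 0.0732 with limma-voom, -0.0697 to 0.0313 with a library left out, and higher past the threshold under TPM with adjusted p = 0.0332). None of these had passed as reported. With the replicate number as a block, 0 members were higher and 2 lower (limma ITGA2B adjusted p = 0.0370, ITGA4 0.0388), and 1776 genes were higher and 1617 lower. Same-numbered libraries correlated at -0.0156, -0.0326 and 0.0339 in their deviations, and differently numbered ones at -0.0282 to 0.0408. With so few libraries this cannot show whether the numbers pair them. Over the tested subunits, the called genes of the lists, 24 other named genes and the 5 low subunits tested at 0.1 FPKM, 940 values kept direction and call, 97 lost the call, 27 gained it and 16 turned. Added after seeing the data were combinations of the minimum of 0.1 FPKM with limma-voom, other scalings, other pseudocounts or a left-out library for ITGB3, ITGB7, ITGAL, ITGB2 and ITGAX. Members under 1 FPKM rest on at most 75 reads per library.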
